A study of Mus musculus with 6 samples.

Results

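The 10 genes described here are 5 ligands of the tumor necrosis factor (TNF) superfamily (Tnf, Tnfsf9, Tnfsf10, Tnfsf13b and Fasl) and 5 of their receptors (Fas, Tnfrsf1a, Tnfrsf1b, Tnfrsf10b and Tnfrsf12a). They were taken by gene symbol from a matrix of 78298 genes, and all 10 were found in it. RNA sequencing compared RENCA cells, a mouse renal adenocarcinoma line, in 2 groups of 3 samples, labelled 2 weeks. In oe-AQP1 the lentivirus expressed the whole mouse Aqp1 open reading frame, which encodes a water channel, from the ubiquitin C promoter. In oe-NC it was the empty vector. Both groups carried the puromycin resistance cassette and had grown for 14 days in 2 μg/mL puromycin, added 48 h after transduction. The expression was therefore driven by a vector promoter in selected pools of 1 cell line grown without other cells. The samples are called biological replicates, but separate transductions are not stated, so p-values measure the spread between these samples.

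TNF superfamily ligands are mostly trimeric membrane proteins, some of which are cut from the cell surface by proteases. Receptors with a cytoplasmic death domain (Fas, TNFR1 and the TRAIL receptor) can assemble caspase-8 complexes that start apoptosis, while the same and other receptors recruit TRAF proteins and activate NF-κB. Tumor cells, macrophages and lymphocytes can all make these ligands, and TRAIL and Fas ligand are known for their use by cytotoxic lymphocytes against tumors. The protein family annotation in the matrix gave 3 of the 10 genes a death domain (Fas, Tnfrsf1a and Tnfrsf10b), and Tnfrsf1b and Tnfrsf12a had none, so not every receptor here is a death receptor. It gave all 5 ligands the TNF domain. The KEGG annotation placed 10 of 10 in cytokine-cytokine receptor interaction, 6 of 10 in apoptosis and 4 of 10 in TNF signaling (Fas, Tnf, Tnfrsf1a and Tnfrsf1b).

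Promoter sequences were read for 8 of the 10 genes from RefSeq (GRCm38.p6), as the 250 bases before the annotated start. Those of 4 genes are printed 5′ to 3′ on the gene's strand: Tnfsf10 and Tnf, whose RNA differed most between the groups, and both TNF receptors, of which Tnfrsf1b was higher in oe-AQP1 and Tnfrsf1a passed no threshold. They lie at chr3:27316827-27317076 (plus strand), chr17:35202008-35202257 (minus strand), chr4:145246871-145247120 (minus strand) and chr6:125349473-125349722 (plus strand). Capitals mark matches, on either strand, to 1 of 4 motifs: the interferon-stimulated response element (GAAA, 2 bases of any kind, GAAA), the IRF core element (AANNGAAA), the GAS element bound by STAT factors (TTCNNNGAA) and a κB site (GGGA, 2 bases of any kind, TTCC).
Tnfsf10: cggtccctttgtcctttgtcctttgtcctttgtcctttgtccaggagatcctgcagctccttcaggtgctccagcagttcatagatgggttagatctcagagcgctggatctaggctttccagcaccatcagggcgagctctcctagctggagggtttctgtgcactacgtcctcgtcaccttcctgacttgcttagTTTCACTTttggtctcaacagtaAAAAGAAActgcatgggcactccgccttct
Tnf: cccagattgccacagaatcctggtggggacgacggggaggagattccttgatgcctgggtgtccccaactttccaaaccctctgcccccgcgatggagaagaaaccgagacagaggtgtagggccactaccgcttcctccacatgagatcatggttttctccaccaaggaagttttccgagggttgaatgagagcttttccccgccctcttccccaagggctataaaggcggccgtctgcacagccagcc
Tnfrsf1b: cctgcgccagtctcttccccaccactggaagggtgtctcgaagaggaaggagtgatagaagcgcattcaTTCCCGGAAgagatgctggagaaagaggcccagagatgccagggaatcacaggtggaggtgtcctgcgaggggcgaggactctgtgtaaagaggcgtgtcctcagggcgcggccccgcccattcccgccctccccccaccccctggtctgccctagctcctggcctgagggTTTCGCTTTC
Tnfrsf1a: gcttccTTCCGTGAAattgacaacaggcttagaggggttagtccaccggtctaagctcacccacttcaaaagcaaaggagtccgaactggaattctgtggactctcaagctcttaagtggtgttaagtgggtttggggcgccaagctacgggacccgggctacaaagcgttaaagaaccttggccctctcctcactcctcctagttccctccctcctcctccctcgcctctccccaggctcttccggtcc
The Tnfsf10 promoter held 2 matches to the IRF core element, TTTCACTT from -53 to -46 and AAAAGAAA from -30 to -23 relative to the start. The Tnfrsf1b promoter held the response element TTTCGCTTTC, which includes an IRF core match, directly before the start (-10 to -1), and a GAS element at -181 to -173. Tnfrsf1a held a GAS element alone (-244 to -236), and the Tnf window held none of the 4 motifs. Among the promoters not printed, the second window of Tnfsf13b, a gene too low to be tested, held the response element GAAAGTGAAA (-16 to -7) and IRF core matches. Fas held an IRF core match (-130 to -123) and a GAS element (-93 to -85). Fasl and Tnfrsf12a, of which Tnfrsf12a was called higher, held none of the 4 motifs. Of 32851 promoters, 2.98% held the response element, 21.3% the IRF core element, 7.02% the GAS element and 1.21% the κB site, so the IRF core element is common by its letters alone. The motifs were chosen with the expression values known, and a match is a description of the sequence, not of binding.

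The libraries held between 18385714 and 21920899 expected counts each. Aqp1 was detected with 7713, 8545 and 7838 counts in oe-AQP1 and 41, 25 and 45 in oe-NC (log2FC = 7.70, SE 0.16, FDR = 1.34e-10). After the filter on low counts 15522 genes were tested with limma-voom, and 16.0% of them passed FDR < 0.05 as higher and 16.6% as lower in oe-AQP1. Among them 4.39% were upregulated DEGs and 0.844% downregulated DEGs, which also required an absolute log2FC above 1. Library oe-NC 1 stood farther from the other oe-NC libraries than any other pair within a group stood apart. Renal epithelial markers were present in both groups, with 10 of 10 tested, the most abundant being Krt8, Krt18 and Pax8. In CPM (counts scaled to library size) they summed to 852 to 885 for the oe-AQP1 libraries and 1040 to 1150 for oe-NC. Of the 10, 5 passed as lower in oe-AQP1 and 0 as higher. The 5 were Krt19 (log2FC = -0.97, at low counts), Lrp2 (-0.93), Cdh16 (-0.63), Krt8 (-0.41) and Krt18 (-0.27). None of the 10 lymphocyte markers was high enough to be tested, and their sum, led by Gzmb, Cd3e and Cd3d, was at most 0.188 CPM in any library. Of 10 macrophage markers 4 were tested, and Adgre1, C1qa and C1qb were at 0 in all 6 libraries.

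Of the 10 genes, 5 passed the test as higher in oe-AQP1 (Tnfsf10, Tnf, Fas, Tnfrsf1b and Tnfrsf12a), 0 passed as lower, 3 did not pass (Tnfsf9, Tnfrsf1a and Tnfrsf10b), and Tnfsf13b and Fasl were too low to be tested. For comparison, 16.0% of all tested genes were higher and 32.5% differed in either direction. The 10 genes, like the gene lists below, were chosen with earlier results of these data known. Such a comparison is therefore a description and not a test. Only Tnfsf10 and Tnf met the DEG rule. Every oe-AQP1 value lay above every oe-NC value for 5 of the 8 tested genes, as it did for 23.5% of all tested genes, and Tnfrsf10b lay wholly below, as 23.8% did (47.3% without overlap in either direction). The median log2FC of the 8 was 0.30 and that of all tested genes was 0.00. In bulk RNA, more cells that express a gene and more RNA per cell cannot be told apart.

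**Figure D1:**
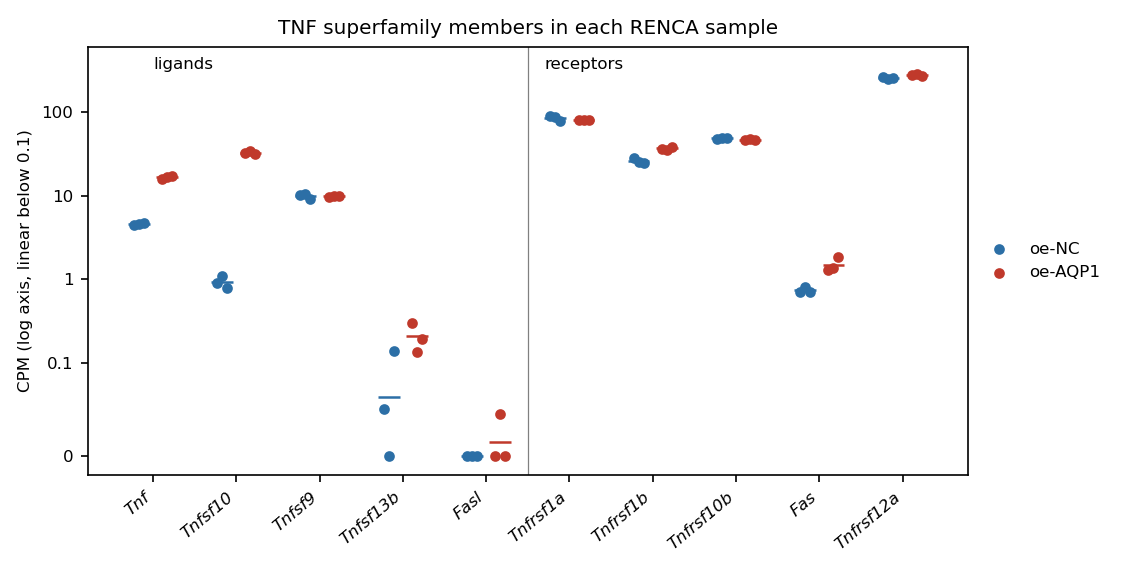
Expression of the 10 TNF superfamily genes in CPM (log axis, linear below 0.1) in each of the 3 oe-NC (blue) and 3 oe-AQP1 (red) samples, with a line at each group's mean. Tnf and Tnfsf10 are separated by wide gaps between the groups, Fas and Tnfrsf1b by narrower ones, while Tnfsf9 and Tnfrsf1a overlap and Tnfsf13b and Fasl sit near 0.

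Among the ligands, Tnfsf10 (TRAIL, the ligand of the mouse death receptor encoded by Tnfrsf10b) showed the largest difference of the 10 genes. It was counted at 644.76, 747 and 646 in oe-AQP1 against 18, 20 and 17 in oe-NC. The lowest oe-AQP1 library was thus more than an order of magnitude above the highest control. In CPM the means were 32.7 ± 1.28 and 0.936 ± 0.149 (SD, n = 3 each), a 34.5-fold difference (log2FC = 5.11, 95% interval 4.68 to 5.53, FDR = 1.55e-08).

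Tnf, the founding ligand of the family and a driver of inflammatory signaling, was counted at 318, 371 and 354 in oe-AQP1 and at 87, 83 and 100 in oe-NC. The groups were far apart relative to their spread, with 16.7 ± 0.581 and 4.55 ± 0.13 CPM (SD, n = 3). This was a 3.65-fold difference (log2FC = 1.87, 95% interval 1.66 to 2.08, FDR = 2.14e-07). Tnfsf9, the ligand of the T cell costimulatory receptor 4-1BB, was not distinguishable between the groups. Its counts were 190, 217 and 206 in oe-AQP1 and 197.96, 194 and 193 in oe-NC, and the groups overlapped (log2FC = 0.00, 95% interval -0.20 to 0.20, FDR = 0.978). An antisense lncRNA, Gm11110, shares 192 exon bases with Tnfsf9 in the annotation.

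The remaining ligands were close to the detection limit. Tnfsf13b, the B cell survival factor BAFF, had 6, 3 and 4 counts in oe-AQP1 and 1, 0 and 3 in oe-NC, and the groups overlapped at 3 counts. Fasl, the ligand of Fas, had 1 count in a single oe-AQP1 library and 0 in the other 5. A count of 0 allows up to 3 counts, so a difference in Fasl was not detectable at this depth.

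Of the receptors, Tnfrsf1b (TNFR2, which lacks a death domain and signals through TRAF2) was counted at 718, 781 and 794 in oe-AQP1 and at 555, 465 and 529 in oe-NC. All oe-AQP1 libraries were above all oe-NC libraries. The mean was 36.8 ± 1.61 CPM against 26.2 ± 1.84 (SD, n = 3), a 1.41-fold difference (log2FC = 0.49, 95% interval 0.35 to 0.64, FDR = 3.04e-04). Tnfrsf1a (TNFR1, the death domain receptor for TNF) did not follow it. Its counts were 1609, 1756 and 1672 in oe-AQP1 and 1774, 1601 and 1692 in oe-NC, the ranges overlapped, and the interval of the log2FC ran from -0.20 to 0.04 (FDR = 0.272). With Tnf 3.65-fold higher, the RNA of its receptors therefore differed by at most 1.41-fold in either estimate.

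Fas, the death domain receptor that recruits FADD and caspase-8, was low in both groups, with 26, 30 and 38 counts in oe-AQP1 and 14, 15 and 15 in oe-NC. The groups did not overlap, and the log2FC was 0.98 (95% interval 0.42 to 1.54, FDR = 0.0134), just under the DEG limit of 1. Library oe-AQP1 3 was the highest, and without it the log2FC was 0.83 and the FDR 0.0531. Tnfrsf10b, the mouse TRAIL death receptor, was counted at 920.98, 1046.06 and 946.09 in oe-AQP1 and at 947.34, 895.49 and 1043.99 in oe-NC. Scaled to library size these became 46.7 ± 0.789 and 48.7 ± 0.419 CPM (SD, n = 3), which did not overlap but differed by a log2FC of -0.06 (95% interval -0.16 to 0.04, FDR = 0.34). That interval covers the death receptor gene Tnfrsf10b alone and stands beside a 34.5-fold difference in its ligand. Among the other receptor genes, Tnfrsf22 was higher (log2FC = 0.42, FDR = 0.00247) and Tnfrsf23 did not pass (0.22, FDR = 0.0508).

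Tnfrsf12a (Fn14, the receptor of the ligand TWEAK) was the most abundant of the 10, with 5461, 6231 and 5521 counts in oe-AQP1 and 5140, 4547 and 5433 in oe-NC. In CPM the groups did not overlap (276 ± 7.42 and 255 ± 6.55, SD, n = 3), with a log2FC of 0.11 (95% interval 0.03 to 0.20, FDR = 0.0422). The call was lost when any library other than oe-NC 1 was left out (FDR between 0.0693 and 0.185). All 1965 exon bases of Tnfrsf12a are covered in the annotation by Hcfc1r1 on the opposite strand, which was lower in oe-AQP1 (log2FC = -0.56, FDR = 3.04e-04), and no source states that reads were counted by strand. Exact two-sided permutation tests on single genes gave p = 0.1, the smallest value that 3 against 3 samples allow, for Tnf, Tnfsf10, Fas, Tnfrsf1b, Tnfrsf10b and Tnfrsf12a. They gave exact p = 0.9 for Tnfsf9, 0.4 for Tnfrsf1a, 0.2 for Tnfsf13b and 1 for Fasl.

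Divided by exon length, as TPM (the level of a transcript per unit length, scaled to a common total), the order of the genes within a sample can be read. In oe-NC it ran from Tnfrsf12a (504 ± 25.1 TPM, SD, n = 3) and Tnfrsf1a (106 ± 9.46) through Tnfrsf10b (33.2 ± 0.602), Tnfsf9 (29.0 ± 2.65) and Tnfrsf1b (20.5 ± 2.01) to Tnf (10.8 ± 0.129). Fas (1.25 ± 0.103), Tnfsf10 (0.671 ± 0.108), Tnfsf13b and Fasl followed, and only the last pair overlapped. In oe-AQP1 Tnf (41.1 ± 1.61 TPM) came next after Tnfrsf12a (566 ± 14.9) and Tnfrsf1a (103 ± 1.04), ahead of Tnfrsf10b (33.0 ± 0.569). Tnfrsf1b (29.9 ± 1.38) and Tnfsf9 (29.8 ± 0.761) overlapped, and Tnfsf10 (24.3 ± 0.939) moved above Fas (2.62 ± 0.521). With the length of the longest transcript in place of all exons, Tnf and Tnfrsf10b exchanged places in oe-AQP1.

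The 18 TNF superfamily ligands together summed to 151 ± 2.64 TPM in oe-AQP1 and 93.7 ± 4.11 TPM in oe-NC (SD, n = 3). In oe-NC the largest shares were those of Tnfsf9 (30.9% ± 2.5) and Tnfsf12 (28.3%), with 11.5% ± 0.493 for Tnf and 0.717% ± 0.118 for Tnfsf10. In oe-AQP1 Tnf had the largest share, 27.2% ± 0.69, and Tnfsf10 took 16.1% ± 0.581. The share of Tnfsf9 was then 19.7% ± 0.275 although its own level did not differ detectably. Among the receptors Tnfrsf12a made up 54.0% ± 0.535 of the TPM of 28 receptors in oe-AQP1 and 52.8% ± 1.24 in oe-NC.

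**Figure D2:**
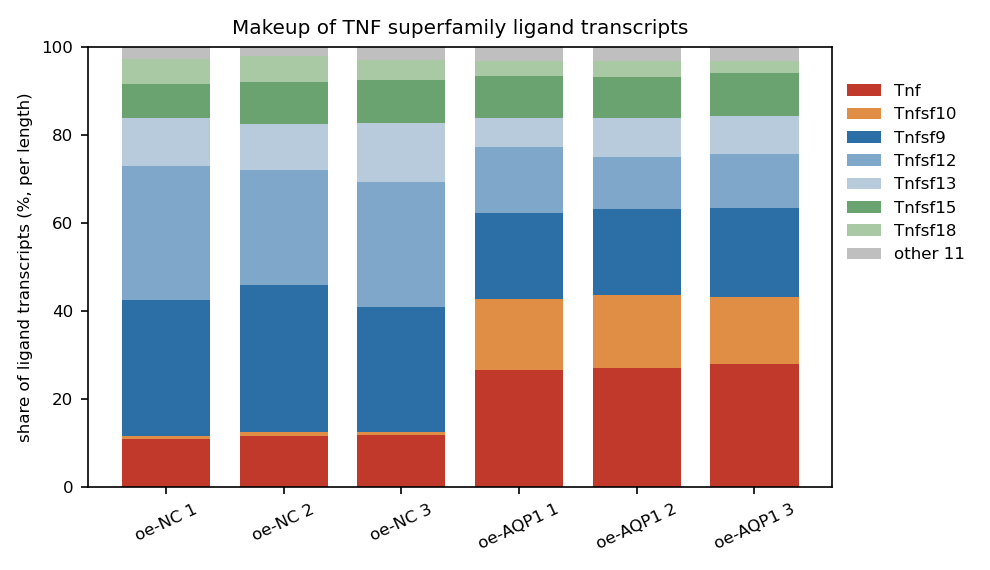
Share of each ligand in the summed TPM of the 18 TNF superfamily ligands (percent, vertical axis) in each of the 6 samples, with 11 ligands of small share pooled in grey. Tnf (red) and Tnfsf10 (orange) together take the lowest part of each bar, which is larger in all 3 oe-AQP1 samples than in any oe-NC sample.

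In the rest of the superfamily many genes were too low to be tested, and no tested gene differed by as much as Tnfsf10 or Tnf. Ltb and Edar also met the DEG rule. Over all tested genes 16.0% were higher and 16.6% lower. Of 13 other ligands 5 could be tested: Ltb (lymphotoxin β, log2FC = 1.02, FDR = 0.008) and Tnfsf15 (TL1A, 0.72, FDR = 1.31e-04) were higher, and Tnfsf12 (TWEAK, -0.48, FDR = 0.00621) was lower. Tnfsf13 and Tnfsf18 did not pass, and Tnfsf4, Cd40lg, Cd70 and Tnfsf14 had no count in any library. Ltb, Tnf and Lta lie within 10946 bases on chromosome 17 (GRCm39). Tnf at chr17:35418357-35420983 and Ltb were both higher, whereas Lta had 3, 5 and 4 counts in oe-AQP1 and 2, 2 and 5 in oe-NC. Tnfsf9, on the same chromosome at chr17:57412298-57414769, lies within 88880 bases of Cd70 and Tnfsf14.

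Of 23 other receptors 12 were tested, of which 7 were higher and 1 lower, beside 16.0% and 16.6% of all tested genes. The 12 had a median log2FC of 0.35, against 0.30 for the 8 tested of the 10 genes. The largest differences were in Edar, the ectodysplasin receptor (1.30, FDR = 3.54e-06), in Tnfrsf14, the herpesvirus entry mediator (0.97, FDR = 0.0257), and in Cd40, a receptor for T cell help (0.51, FDR = 7.43e-04). Tnfrsf14 rests on 7 to 16.07 counts per library. Relt (0.37) and Tnfrsf13c, the receptor of BAFF (0.33), were the least raised of those higher. Tnfrsf9, the receptor of the Tnfsf9 product, was lower (-0.35, FDR = 0.0394). The call for Tnfsf12 was thus in the opposite direction to that for its receptor gene Tnfrsf12a. The Tnfrsf12a call passed in only 7 of 16 alternatives, and its exons are covered by Hcfc1r1. Tnfrsf9 was lower beside an indistinguishable Tnfsf9. With 1 library left out, 3 of the other receptors were higher without oe-AQP1 1, 4 without oe-AQP1 2, oe-NC 2 or oe-NC 3, and 0 were lower in any of these fits but that without oe-NC 3, so the Tnfrsf9 call was lost in the rest, as it was without oe-AQP1 3 or oe-NC 1. At FDR < 0.01 the other receptors had 3 higher and 0 lower.

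**Figure D3:**
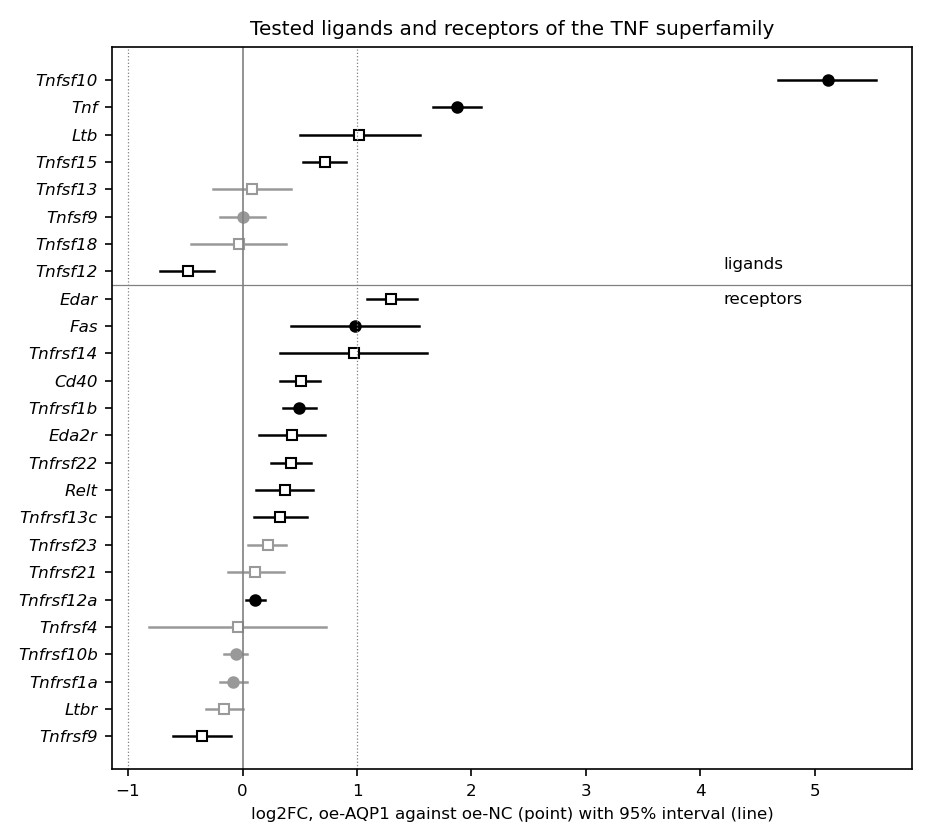
The log2FC of oe-AQP1 against oe-NC with its 95% interval for each tested ligand and receptor of the TNF superfamily (filled circles, the 10 genes described; open squares, the rest; black, FDR < 0.05; grey, not passed; dotted lines, the DEG limits). Tnfsf10 at 5.11 and Tnf at 1.87 lie to the right of all the rest, and most receptors lie between -0.35 and 0.51.

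Below the receptors, 16 of 27 genes of the death receptor complexes were higher and 2 were lower in oe-AQP1, with a median log2FC of 0.22. Of all tested genes 16.0% were higher and 16.6% lower. Without oe-AQP1 3, 1 complex gene was lower. Mlkl, the executor of necroptosis, was the only DEG (log2FC = 1.19, FDR = 1.6e-08, counts 1946.12, 2167.35 and 2109.72 against 862.37, 781.31 and 942.52). Tnfaip3 (A20, an inhibitor of TNF signaling; 0.93, FDR = 1.61e-06) and Traf1 (an NF-κB-induced adaptor; 0.82, FDR = 9.95e-04) were next. Casp8, the initiator caspase, was higher by 0.23 (FDR = 0.00251) and its inhibitor Cflar by 0.27 (FDR = 0.00195). The adaptors Fadd (0.00) and Tradd (-0.04) did not pass. The kinase gene Map3k7 (TAK1, -0.19, FDR = 0.0122) was lower, and Ripk1 was the least raised of those higher (0.18, FDR = 0.0377).

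Among 6 genes for the shedding of TNF superfamily proteins, the proteases Adam17, which releases soluble TNF, and Adam10 were lower (log2FC = -0.30, FDR = 0.00125, and -0.25, FDR = 0.00343). The inhibitor Timp3 (0.96, FDR = 0.0449) and the Adam17 cofactor Rhbdf2 (0.29, FDR = 0.0301) were higher. Thus 2 of the 6 were higher and 2 lower, beside 16.0% and 16.6% of all tested genes. Timp3 was low, with 44.44, 30.94 and 47.87 counts in oe-AQP1 and 29, 18 and 14 in oe-NC, and its groups overlapped in CPM. The number of shedding genes called higher fell to 0 without oe-AQP1 1, oe-AQP1 3, oe-NC 2 or oe-NC 3 and to 1 without oe-AQP1 2, while 2 were lower in each of these fits.

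Of 26 textbook targets of TNF and NF-κB, 22 were tested, 16 were higher and 1 was lower, with 10 upregulated DEGs and a median log2FC of 0.72. Over all tested genes the shares were 16.0% higher, 16.6% lower and 4.39% upregulated DEGs. Il6 had 43, 43 and 41 counts in oe-AQP1 and 1, 1 and 0 in oe-NC. The chemokine genes Ccl2 (log2FC = 2.60, FDR = 3.03e-11) and Cxcl1 (2.24, FDR = 1.05e-06) followed. Ccl7 and Ccl20, also among the 10 DEGs, were low as well. Ccl7 had 27, 14 and 17 counts in oe-AQP1 and 5, 8 and 1 in oe-NC. Ccl20 had 37, 43 and 40 against 19, 6 and 14. When genes that fell below 10 counts in some library were dropped, 13 targets were higher and 1 was lower. Sod2, encoding the mitochondrial superoxide dismutase, was lower (-0.38, FDR = 6.06e-05), and Csf1 (0.25) and Lif (0.34) were the least raised of those higher.

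Interferon-stimulated genes also differed between the groups. All 15 of 15 markers, a list chosen with earlier results of these data known, were upregulated DEGs, as were 4.39% of all tested genes. The summed level of the markers was 12300 CPM in every oe-AQP1 library to 3 digits and 2230 to 2320 CPM in oe-NC. The highest were Mx1 (log2FC = 5.91), Cxcl10 (5.19) and Ifit3 (4.85). Of the 4 macrophage markers tested, 0 passed as higher and 2 as lower, Csf1r (-1.51) and Lyz2 (-0.52), while Cd68 (0.15, FDR = 0.0764) and Cd14 (-0.16, FDR = 0.147) did not pass. The list summed to 59.0 to 62.2 CPM in oe-AQP1 and 69.3 to 71.3 CPM in oe-NC, with Cd68, Lyz2 and Cd14 the most abundant. Endothelial and fibroblast markers (2 of 8 tested, Kdr at 0), led by Pdgfrb, Pecam1 and Tek, summed to 45.7 to 46.5 and 34.8 to 40.5 CPM. The part of the interferon-stimulated genes in the values of Tnf, Tnfsf10 and their receptors was not tested.

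The genes whose pattern over the 6 samples was nearest to that of Tnfsf10, by Euclidean distance of centred log2 CPM, were Ifit3 (distance 0.37), Ccl5 (0.37) and Cxcl10 (0.39). Those nearest to Tnf were Slfn2 (0.066), Slfn9 (0.066) and Gm57169 (0.089). With 2 groups of 3, such a distance mostly measures a similar difference between the groups.

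**Figure D4:**
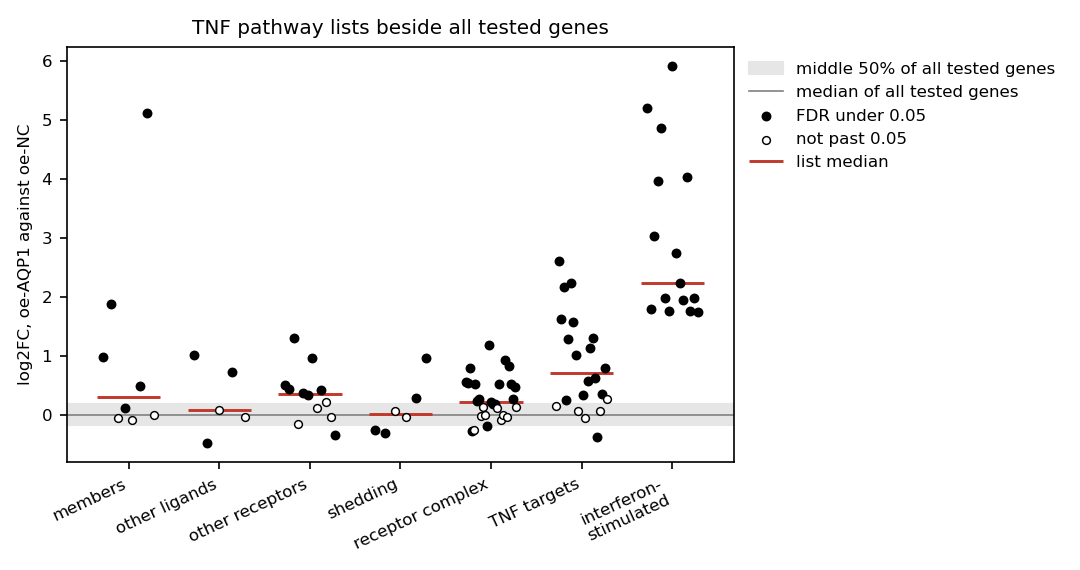
The log2FC of oe-AQP1 against oe-NC for every tested gene of 7 lists (filled, FDR < 0.05; open, not passed), with the list median in red and the middle of the distribution of all tested genes as a grey band. Il6, whose control counts are at the floor, is not drawn. The medians of the receptor and complex lists, 0.35 and 0.22, lie below those of the TNF targets (0.72) and the interferon-stimulated genes (2.23).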

How the data were processed

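Total RNA of 3 oe-AQP1 and 3 oe-NC samples of RENCA cells was sequenced paired-end after Illumina TruSeq library preparation. The authors deposited expected counts per gene, not scaled between samples. Of these 89.8% were whole numbers, and those of Tnfsf9, Tnfsf10 and Tnfrsf10b were not whole in every library, which can arise where reads are shared among genes. The paper gives GRCm39 as the genome, whereas the submitters' processing notes list GRCm38 and mm10, together with fastp, HISAT2, Subread and featureCounts. The matrix also holds the authors' group means, which were not used, and functional annotation. Positions and exon lengths came from GENCODE M39 (GRCm39), which held 78168 of the 78298 genes.

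Counts were rounded to whole numbers and compared in R 4.3.3 with limma 3.58.1 (voom, TMM scaling, filterByExpr by group, Benjamini-Hochberg FDR over the 15522 genes kept). The study's methods state limma-voom with TMM and the DEG limits below, in another R version, and name no low-count filter. They also removed interferon-stimulated and viral defense genes as transfection artifacts but kept inflammatory mediators relevant to cancer. The paper reports Tnfsf10 and Cxcl10 among its upregulated TNF signaling genes. No such removal was done here. DEGs were genes with FDR < 0.05 and an absolute log2FC above 1. edgeR 4.0.16 (quasi-likelihood test), DESeq2 1.42.0, other scalings and filters and leaving out each library were alternatives. Single genes were also compared by exact permutation of log2(CPM + 0.1). CPM values used TMM-scaled library sizes. TPM values, computed here from the deposited counts, used merged exon lengths. Scripts were tested on simulated data. Intervals on levels are SDs over samples, and counting floors cover counting error only. Replicate numbers did not pair the samples.

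The members and gene lists were chosen with earlier results of these data known. Outside the 10 genes, those named were the 3 highest and 3 lowest log2FC among genes with FDR < 0.05 in each pathway list, the 3 highest interferon-stimulated markers, the 3 most abundant markers of each cell type and the 3 genes nearest in pattern to Tnfsf10 and Tnf. A gene that this rule names is not reported here. Casp8, Cflar, Fadd, Tradd, Tnfrsf22, Ccl7, Ccl20, Krt19, Lrp2, Cdh16 and Csf1r were named after their values were seen. The same holds for genes without counts, genes that did not pass and overlapping or neighboring genes.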

Additional observations from a re-analysis of the deposited data

How the results depend on the processing

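Under 16 alternatives Tnf (log2FC 1.85 to 1.90), Tnfsf10 (4.99 to 5.22) and Tnfrsf1b (0.45 to 0.55) passed in all 16. Fas (0.83 to 1.06) passed in 14, and Tnfrsf12a (0.09 to 0.13) in 7. Tnfrsf1a (-0.14 to -0.04), Tnfrsf10b (-0.08 to -0.05) and Tnfsf9 (-0.07 to 0.04) passed in none. Tnfsf9 changed sign, at values near 0, with library size alone (0.01), with at least 10 counts in every sample (0.00) and without oe-AQP1 replicate 1 (0.01), oe-NC replicate 1 (0.01) or oe-NC replicate 2 (0.04).

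With the replicate number as a block, 4 of the 10 genes were higher, since Tnfrsf12a did not pass (0.11, FDR = 0.0722), and 2346 genes were higher and 2479 lower over all. The numbers did not pair the samples (correlations 0.00911, -0.0044 and -0.0677). At FDR < 0.01, 3 of the 10 genes were higher, with 1570 genes higher and 1572 lower over all, 86 downregulated DEGs, 3 higher and 0 lower other receptors, 1 lower complex gene and 0 higher shedding genes. DESeq2, and the fit with no filter beyond 1 count, each gave 3 higher and 0 lower other receptors, and the fit without filter gave 204 downregulated DEGs and 1 higher shedding gene. With at least 10 counts in every sample there were 416 upregulated and 66 downregulated DEGs, fewer genes being tested.

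Leaving out 1 library at a time gave 1856 to 3125 higher and 1745 to 3331 lower genes, the upper values without oe-NC 1, and 661 to 729 upregulated and 104 to 162 downregulated DEGs. Of the 10 genes 3 to 5 were higher and 0 lower, the 3 without oe-AQP1 3, where Fas and Tnfrsf12a did not pass. Other ligands had 2 higher and 1 lower each time; other receptors had 3 to 6 higher and 0 to 1 lower, complex genes 14 to 16 and 1 to 3, shedding genes 0 to 3 and 2, and TNF targets 15 to 18 and 1. The cause of these shifts was not tested. Depth limits Fasl, Tnfsf13b and Il6 in oe-NC, at or near 0 counts.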
